A study of Mus musculus with 14 samples.

Results

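The effect of MxCre on gene expression was compared between liver sinusoidal endothelial cells (LSEC), the fenestrated endothelium that lines the liver sinusoids, and thymus, the organ in which T cells mature. For each named gene the difference was (Cre+ minus control in LSEC) minus (Cre+ minus control in thymus), on the log2 scale. A difference above 0 means that the LSEC effect was higher than the thymus effect, and one below 0 that it was lower. All 10 arrays of these groups were used of the 14 in the series: 3 control and 3 Cre+ LSEC arrays, and 2 control and 2 Cre+ thymus arrays. All mice were of the FVBn background and carried 2 floxed alleles (L/L) each of Fk1, Fk2 and Afx, older names of Foxo1, Foxo3 and Foxo4, so the controls are floxed too. Cre+ mice also carried MxCre, a Cre recombinase transgene under the interferon-inducible Mx1 promoter, which is active in many cell types, and control mice lacked it. The labels give no age, no treatment that induced Cre, no way of isolating the cells and no statement that replicates are separate animals, so p-values measure only the spread between these samples, which may be technical. No group of this comparison held Cre without the floxed alleles, so the transgene and the loss of the FoxO genes cannot be told apart here.

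FoxO proteins are forkhead transcription factors that insulin and growth factor signalling through the kinase Akt moves out of the nucleus. In the nucleus they bind DNA around a short forkhead core and switch on genes of cell cycle arrest, stress resistance and fuel use. In endothelium FoxO1 is known to drive the Tie2 ligand angiopoietin 2, and in lymphocytes FoxO1 is known to control homing and cytokine receptor genes. LSEC and thymus also differ in what they are: the first is labelled as 1 cell type, the second is a whole tissue made mostly of dividing and maturing thymocytes.

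After quantile normalization, Pearson r over genes was 0.970 to 0.986 between arrays of 1 group and 0.589 to 0.626 between an LSEC and a thymus array. The mean level of 19 tested LSEC markers was 10.03 to 10.38 on control LSEC arrays and 6.68 to 6.85 on control thymus arrays. T cell markers stood at 5.85 to 6.22 and 11.08 to 11.10, and thymic epithelial markers at 7.20 to 7.35 and 9.74 to 9.79. LSEC arrays thus carried the defining markers of their label, as did thymus arrays. Macrophage and Kupffer cell markers had means of 9.18 to 10.22 on control and 8.76 to 10.06 on Cre+ LSEC arrays, a range of over 1 log2 unit within each genotype. In bulk samples fewer cells of a type and less RNA per cell cannot be told apart. The median SD of a gene was 0.128 in control LSEC, 0.127 in Cre+ LSEC, 0.0766 in control thymus and 0.132 in Cre+ thymus. With 2 or 3 arrays a group, their number limits the precision.

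The floxed genes were read first. Foxo1 and Foxo4 RNA fell in both tissues, while Foxo3 RNA fell in LSEC and rose in thymus. Foxo1 has 4 probe sets. On 1416981_at, the brightest, the level was 8.97, 8.89 and 8.87 in control LSEC and 7.84, 8.19 and 7.90 in Cre+ LSEC, against 9.44 and 9.21 in control and 8.29 and 7.98 in Cre+ thymus. The groups did not overlap in either tissue, and the effects of -0.93 and -1.19 differed by 0.26 ± 0.20 (SE; limma adjusted p over all named probe sets = 0.537). On 1416982_at the level went from 9.07, 8.96 and 8.59 to 6.94, 6.75 and 6.61 in LSEC, and from 9.14 and 8.98 to 7.97 and 8.10 in thymus. On 1416983_s_at it went from 8.58, 8.48 and 8.0 to 4.36, 4.58 and 5.44 in LSEC and from 8.37 and 8.08 to 6.62 and 6.24 in thymus. On the first of these the LSEC effect was lower by -1.09 ± 0.25 (SE; limma adjusted p = 0.0405), and on the second the difference of -1.76 ± 0.43 (SE) just missed the threshold of 0.05 (limma adjusted p = 0.0501). The sign of the Foxo1 difference thus depends on which probe set is read. The fourth, 1456529_at, was dim in both tissues and is listed at 0 on 1 control LSEC array.

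Foxo3 was the only gene called in opposite directions in the tissues (0.00767% of the 13034 genes tested). Without thymus control replicate 2 no gene was called in opposite directions, and without thymus Cre+ replicate 1 there were 21. Its brightest probe set, 1434832_at, stood at 9.08, 9.13 and 9.17 in control LSEC and 8.57, 8.47 and 8.74 in Cre+ LSEC, and at 8.89 and 8.95 in control and 9.68 and 9.53 in Cre+ thymus. Every Cre+ LSEC array was below every control, and both Cre+ thymus arrays were above both controls. The difference was -1.21 ± 0.13 (SE; 95% interval -1.50 to -0.93; limma adjusted p over the genes tested = 0.00133). Probe set 1434831_a_at gave -0.58 in LSEC and 0.46 in thymus, a difference of -1.04 ± 0.17 (SE; limma adjusted p = 0.0125). The third, 1450236_at, was dim in thymus and gave -0.31 ± 0.22 (SE; limma adjusted p = 0.501). No Foxo3 probe set was lower in Cre+ thymus. Where each probe set lies relative to the floxed exons was not determined, so a probe set that did not fall checks nothing.

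For Foxo4, 1456753_at went from 7.37, 7.06 and 6.94 to 4.69, 5.38 and 4.86 in LSEC and from 8.08 and 8.09 to 4.73 and 4.97 in thymus. The Cre+ levels lie under 6.87, the limit below which a probe set was taken as dim, in both tissues, so both sizes are uncertain. The fall of 3.24 in thymus exceeded that of 2.15 in LSEC by 1.09 ± 0.32 (SE), which did not pass over the genes tested (limma adjusted p = 0.113). Probe set 1422149_at was dim in both tissues.

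**Figure D1:**
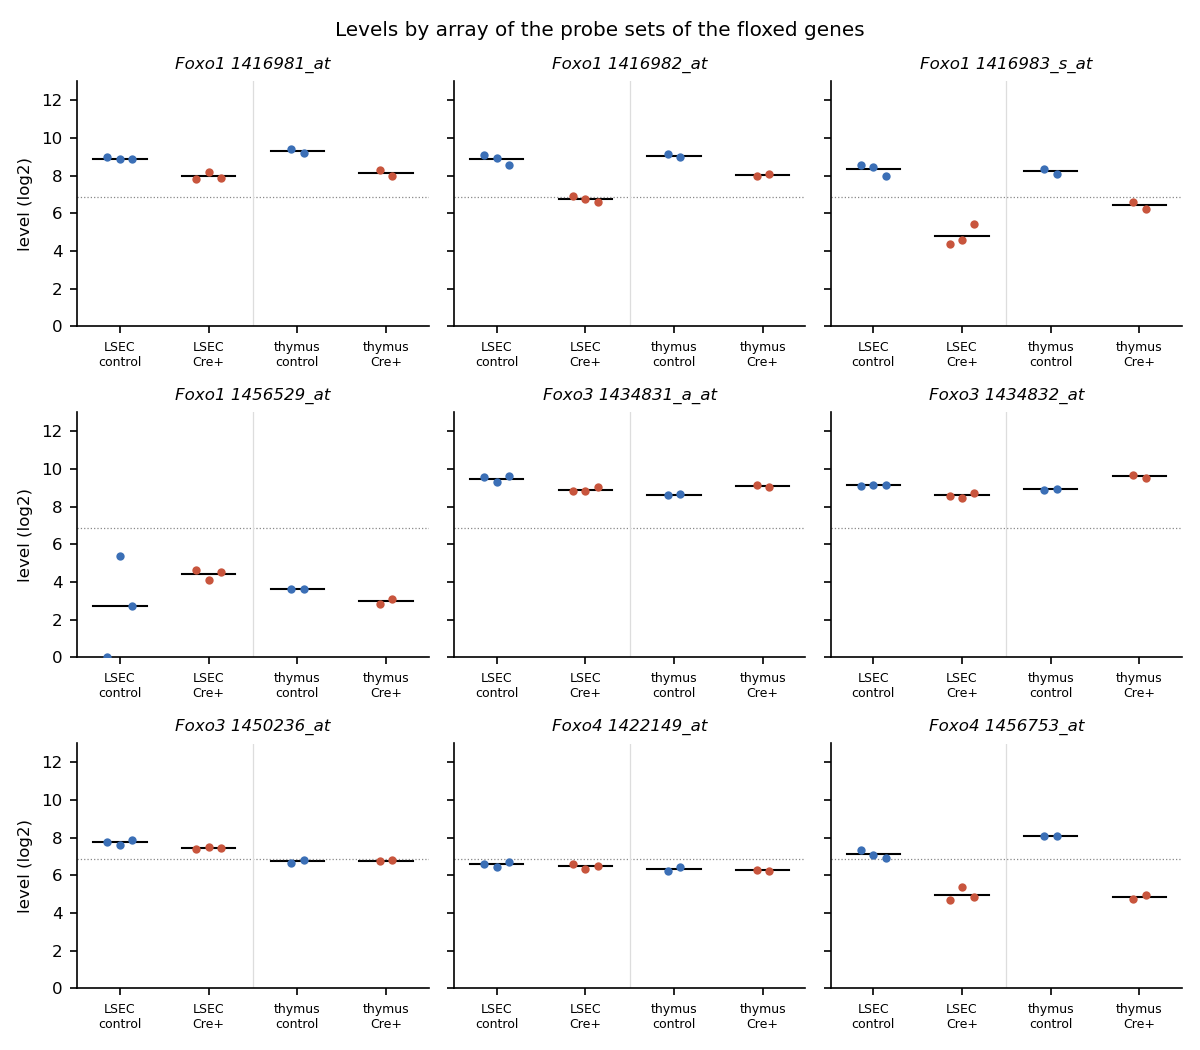
Level (log2) on each array of the 9 probe sets of the floxed genes, in control (blue) and Cre+ (red) LSEC and thymus; black bars are group means and the dotted line is the limit of 6.87 for a dim probe set. Foxo3 1434832_at moves down in LSEC and up in thymus, while Foxo1 1416983_s_at falls further in LSEC and Foxo4 1456753_at falls to below 5 log2 units in group mean in both tissues.

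Across all genes, the genotype effect differed between the tissues for 305 of 13034 genes (2.34%; limma adjusted p under 0.05). The LSEC effect was higher for 117 (0.898%) and lower for 188 (1.44%), and 168 differed by more than 2-fold. The count rests heavily on single thymus arrays: it was 62 without control replicate 2, 143 without control replicate 1 and 92 without Cre+ replicate 2, but 666 without Cre+ replicate 1. Leaving out 1 LSEC array at a time gave 215 to 298. Of the 62, 59 were among the 305. At an unadjusted p under 0.05, 2164 genes differed.

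Genes with signal in both tissues were then separated from genes dim in one. A tissue had signal for a gene where the higher of its 2 group means reached 6.87. Of the 10708 genes with signal in both, 212 differed (1.98%), 87 with the higher and 125 with the lower effect in LSEC. Of 1292 genes with signal in LSEC alone, 73 differed (5.65%), 20 and 53. Of 701 genes with signal in thymus alone, 15 differed (2.14%), 9 and 6, and of 333 with signal in neither, 5 differed (1.5%). In the genes dim in one tissue, the effect there has little room to show, and a called difference does not say which tissue moved. Taking the mean of the genotype means in place of the higher one left 195 differences in genes with signal in both tissues.

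Within the tissues, 790 of the genes tested changed in LSEC (6.06%), 366 up (2.81%) and 424 down (3.25%), and 54 in thymus (0.414%), 23 up (0.176%) and 31 down (0.238%). Among the 212 genes with signal in both, 87 fell in LSEC alone, 53 rose in LSEC alone, 10 fell in thymus alone and 11 rose in thymus alone. In 49 neither tissue's own effect passed, and in the remaining 2, Foxo3 and Gm34303, both did. The estimates were of opposite sign in 179 of the 212, 103 of them negative in LSEC and positive in thymus, against 5694 of all 10708 genes with signal in both (53.2%). Control and Cre+ arrays did not overlap in either tissue for 149 of the 212, against 10.1% of all genes tested. They lay apart in LSEC for 184 and in thymus for 177, against 23.7% and 41.6% of all genes. These genes were selected by the difference itself, so both figures describe them and test nothing. Of 302 genes with signal in both tissues that fell in LSEC, 88 also differed from thymus, and of 273 that rose, 53 did. For the other genes called in LSEC, a difference from thymus was not shown. Across the 10708 genes the 2 effects had a Pearson r of 0.00298, and the median difference was -0.0096. Genes are not independent replicates, and each effect rests on the same few arrays.

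**Figure D2:**
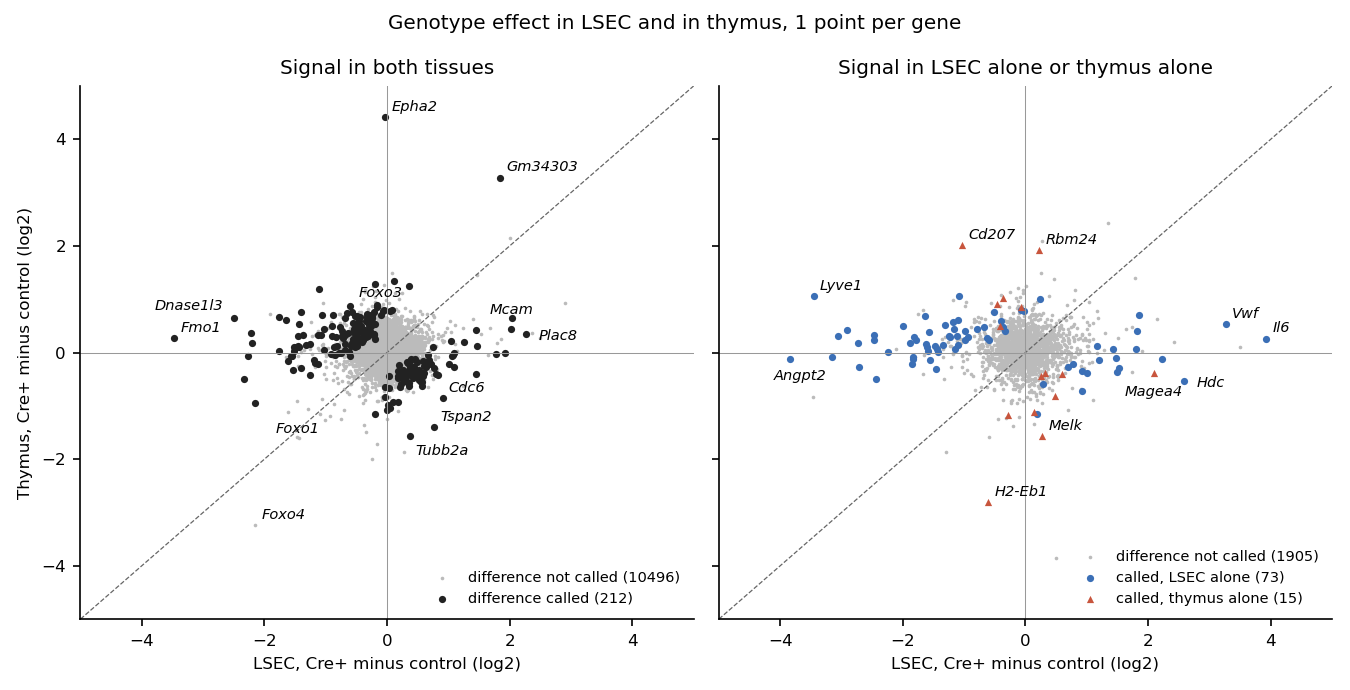
Each point is a gene, placed by its effect in LSEC (x, Cre+ minus control, log2) and in thymus (y, the same); the left panel holds the 10708 genes with signal in both tissues and the right panel those with signal in LSEC alone or thymus alone, with called differences in dark or colour and equal effects on the dashed line. The called genes on the left fall mainly in the upper left and lower right quadrants, and on the right those with signal in LSEC alone spread along the x axis.

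The largest called difference with signal in both tissues was that of Epha2, which encodes a receptor tyrosine kinase for ephrin-A ligands. Its level was 10.04, 10.04 and 10.09 in control LSEC and 9.86, 10.22 and 9.99 in Cre+ LSEC, but 5.09 and 4.71 in control and 9.51 and 9.11 in Cre+ thymus. LSEC arrays of the genotypes overlapped, and thymus arrays lay more than 4 log2 units apart. Epha2 rose by 4.41 in thymus (limma adjusted p = 1.84e-06), from a level below 6.87, so the size is uncertain, and the difference was -4.44 ± 0.28 (SE; 95% interval -5.05 to -3.84; limma adjusted p = 5.43e-05). In lung endothelial cells the estimate was 0.20. Epha2 has 1 probe set here.

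Most other large differences in this direction came from falls in LSEC. Fmo1, a flavin-containing monooxygenase gene, went from 8.69, 9.28 and 8.45 to 4.59, 5.88 and 5.53 in LSEC, and stood at 7.54 and 7.73 in control and 7.75 and 8.07 in Cre+ thymus. It fell by 3.47 in LSEC, to a dim level, and the difference was -3.75 ± 0.48 (SE; limma adjusted p = 0.00399). Dnase1l3, whose secreted enzyme digests DNA of dying cells, went from 9.04, 10.17 and 9.12 to 6.62, 6.60 and 7.62 in LSEC and from 8.24 and 8.33 to 8.86 and 8.99 in thymus. The groups did not overlap in either tissue, with the Cre+ arrays low in LSEC and high in thymus. The thymus value of 0.64 did not pass by itself (limma adjusted p = 0.534), while the difference of -3.14 ± 0.48 (SE) did (limma adjusted p = 0.0095). On a second Dnase1l3 probe set the difference of -2.73 did not pass (limma adjusted p = 0.0871).

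Gpx3, a secreted glutathione peroxidase gene, went from 9.66, 10.55 and 10.36 to 8.48, 7.72 and 7.72 in LSEC and from 8.76 and 8.17 to 8.87 and 8.79 in thymus, a difference of -2.58 ± 0.41 (SE). Hspb1, a small heat shock protein gene, went from 11.66, 11.67 and 12.39 to 9.87, 10.82 and 9.75 in LSEC and from 8.29 and 8.16 to 8.54 and 9.25 in thymus, a difference of -2.43 ± 0.45 (SE). All Cre+ LSEC arrays were below the controls for both genes. Fcgr2b, the gene of the inhibitory Fc receptor with which LSEC clear immune complexes, fell from 10.90, 11.65 and 10.86 to 8.84, 8.85 and 9.11 in LSEC, while its thymus levels of 8.80 and 8.61 in control and 8.73 and 9.04 in Cre+ arrays overlapped. The difference was -2.39 ± 0.30 (SE; limma adjusted p = 0.0037). On 3 other Fcgr2b probe sets, dim in thymus, it was -3.36, -3.38 and -3.21.

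Sult1a1, a phenol sulfotransferase gene, fell by 1.12 in LSEC and stood 1.19 higher in Cre+ thymus without passing there (limma adjusted p = 0.164). Its control thymus level was dim, at 6.62 and 6.42, and the difference was -2.31 ± 0.44 (SE; limma adjusted p = 0.022). Mmd, a gene named for monocyte to macrophage differentiation, fell from 10.25, 10.25 and 10.04 to 7.87, 7.77 and 8.08 in LSEC and stood at 8.45, 8.52, 8.59 and 8.27 in thymus with the genotypes overlapping. Its difference was -2.21 ± 0.18 (SE; limma adjusted p = 0.000255), and its other probe sets gave -2.31 and -2.14. The lipoprotein lipase gene Lpl (-2.15) and Gja1 (-1.97), which encodes the gap junction protein connexin 43, fell in LSEC by 1.40 and 1.44 and had thymus estimates of 0.76 and 0.53. For both genes the groups lay apart in the 2 tissues, in opposite directions.

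Large positive differences more often involved a rise in LSEC. Plac8 went from 7.46, 6.51 and 7.33 to 9.85, 9.28 and 8.99 in LSEC and from 9.15 and 9.10 to 9.35 and 9.60 in thymus, a difference of 1.92 ± 0.39 (SE; limma adjusted p = 0.0302). Prkar2b, which encodes a regulatory subunit of protein kinase A, rose from 7.97, 8.46 and 8.37 to 9.85, 9.81 and 10.48 in LSEC, and its thymus levels of 8.04 and 7.80 in control and 8.22 and 7.58 in Cre+ overlapped. Its difference was 1.80 ± 0.33 (SE; limma adjusted p = 0.0182). The other Prkar2b probe sets gave 2.18 and 0.71, the second without passing (limma adjusted p = 0.176). Mcam (1.57), the gene of the endothelial adhesion molecule CD146, and Cd9 (1.40), a tetraspanin gene, rose by 2.01 and 2.04 in LSEC and had thymus estimates of 0.44 and 0.64, which did not pass (limma adjusted p = 0.516 and 0.134).

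Other positive differences came from thymus. Tubb2a, a beta tubulin gene, stood at 10.41, 10.88 and 10.78 in control LSEC and 11.01, 10.86 and 11.31 in Cre+ LSEC, with overlap, and fell from 10.26 and 10.06 to 8.72 and 8.46 in thymus. Its difference was 1.94 ± 0.23 (SE; limma adjusted p = 0.00278). Tspan2, a tetraspanin gene, had the largest positive called difference with signal in both tissues, 2.17 ± 0.35 (SE; limma adjusted p = 0.0107), although neither tissue passed by itself. It went from 7.82, 7.97 and 7.30 to 8.56, 8.03 and 8.82 in LSEC and from 7.94 and 7.78 to 6.59 and 6.33 in thymus. The arrays moved up in one tissue and down in the other with no overlap in either, and the 2 other probe sets gave 1.75 and 0.67.

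The rest of the 12 largest positive called differences with signal in both tissues were those of Bhlhb9 (1.94), Lysmd2 (1.86), Cdc6 (1.77), Phgdh (1.37), Serpinb6b (1.33) and Rfc3 (1.25), all of which rose in LSEC. Phgdh encodes the first enzyme of serine synthesis, Serpinb6b a serpin, and Rfc3 a subunit of the clamp loader of DNA replication. Control LSEC levels of Bhlhb9, Lysmd2, Cdc6 and Rfc3 were below 6.87, so the sizes of their rises are uncertain. Thymus estimates of these genes lay between -0.86, for Cdc6, and 0.13, for Serpinb6b.

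**Figure D3:**
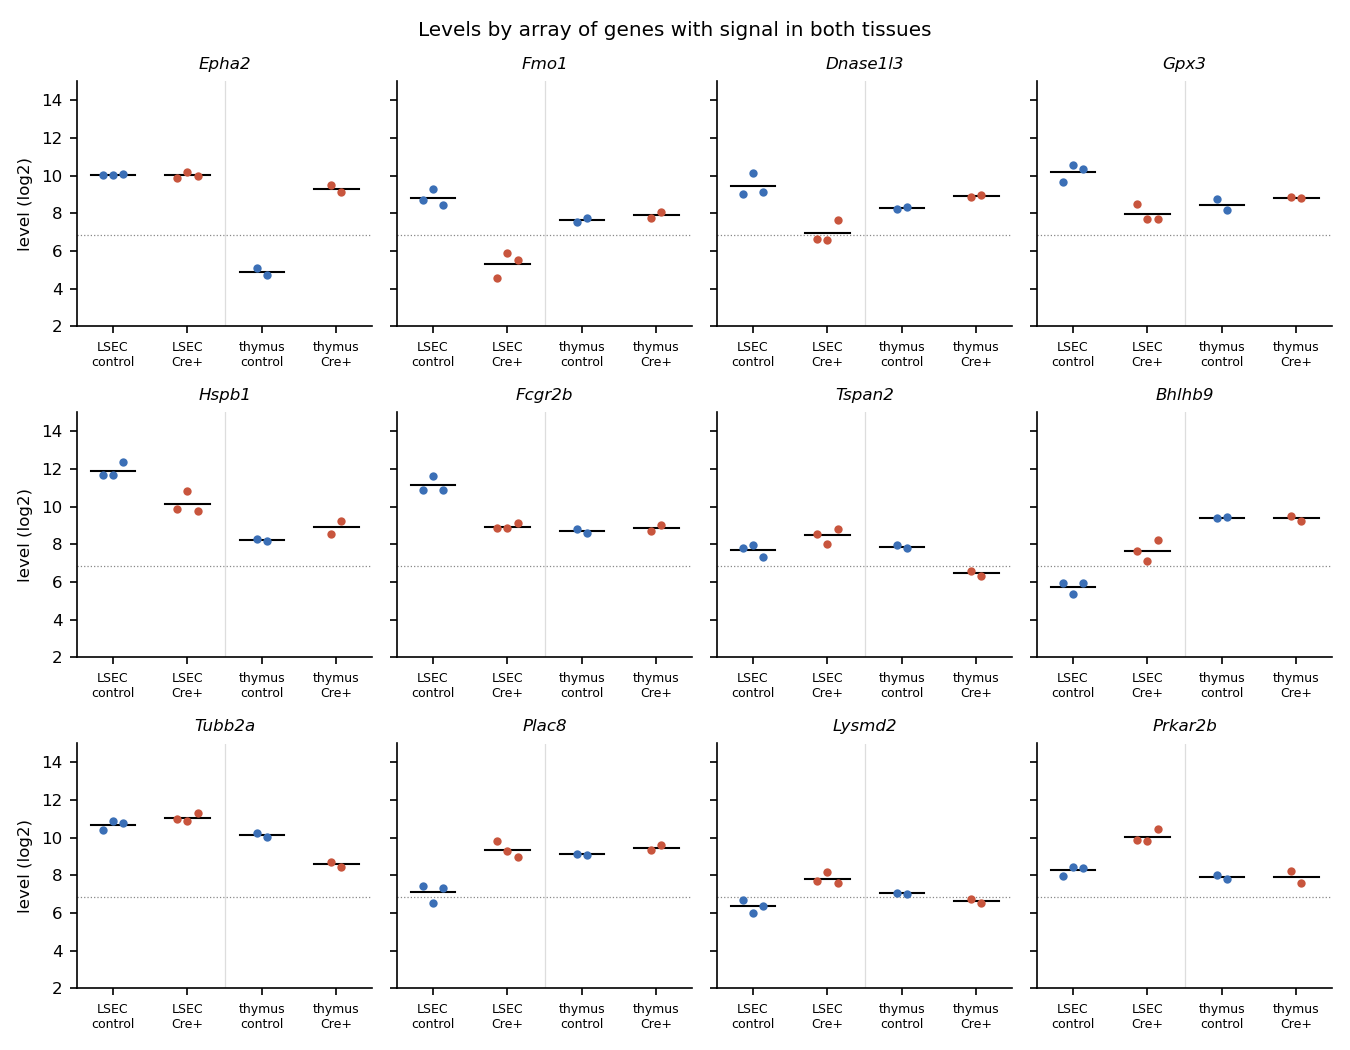
Level (log2) on each array of 12 genes with signal in both tissues and among the largest differences, in control (blue) and Cre+ (red) samples; black bars are group means and the dotted line is 6.87. The 6 genes from Epha2 to Fcgr2b have lower effects in LSEC, and the 6 from Tspan2 to Prkar2b higher ones; only Epha2, Tubb2a and Tspan2 show their main shift in thymus.

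Genes that load and form the replicative MCM helicase, which licenses origins and unwinds DNA at the fork, had an LSEC estimate above the thymus one in 19 of 20 cases. Of 20 tested, all with signal in both tissues, 7 had a called difference, all higher in LSEC: Mcm2, Mcm3, Mcm4, Mcm6, Mcm7, Orc6 and Cdc6 (0.898% of all genes were called in this direction). Mcm3 went from 9.11, 9.10 and 9.12 to 9.78, 9.57 and 9.57 in LSEC and from 10.21 and 10.28 to 9.76 and 9.70 in thymus. Mcm6 went from 9.19, 8.85 and 9.42 to 9.84, 9.72 and 9.62 in LSEC and from 11.39 and 11.34 to 10.98 and 10.98 in thymus. For both genes every Cre+ array was above the controls in LSEC and below them in thymus. Cdc6, which brings the helicase to origins, went from 5.70, 5.94 and 6.29 to 6.95, 6.63 and 7.06 in LSEC and from 8.56 and 8.71 to 8.14 and 7.40 in thymus.

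The differences were 1.05 ± 0.14 for Mcm3, 0.96 ± 0.20 for Mcm6 and 1.77 ± 0.32 for Cdc6 (SE; limma adjusted p = 0.0052, 0.0321 and 0.0187). In LSEC 8 of the 20 rose (2.81% of all genes) and none fell. In thymus none passed by itself, and 11 were lower and none higher at an unadjusted p under 0.05 in limma, where 5.72% of all genes were lower. The list's median was 0.17 in LSEC and -0.30 in thymus, with a median difference of 0.53 and 19 of 20 differences above 0, where the median over all genes was -0.015. The median stayed between 0.41 and 0.63 under every alternative run for the lists, which was not done for every probe set in place of one per gene. Called differences numbered 0 with the replicate block, 2 over 2-fold, 3 with no filter and 4 with the 10 arrays alone. With the filter at the 60th percentile there were 9. The count of 7 was 2 without thymus control replicate 2, 3 without thymus control replicate 1 and 3 without thymus Cre+ replicate 2.

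Genes of mitosis and cell division had no called change. Of 24 tested, none had a called difference in limma, and none a called effect in LSEC or in thymus. At an unadjusted p under 0.05 the LSEC effect was higher for 10 and lower for none, against 7.97% and 8.63% of all genes, and 16 were lower in thymus (5.72% of all genes). The list's median was -0.04 in LSEC and -0.52 in thymus, and 22 of 24 differences were above 0. Top2a, a topoisomerase gene of dividing cells, had estimates of 0.19 and -0.60, and Ccna2, the gene of cyclin A2, -0.04 and -0.53. Mki67, which encodes the proliferation marker Ki-67, stood at -0.34 and -0.52. Mean levels of this list by array were 7.34 to 7.88 in control and 7.45 to 7.69 in Cre+ LSEC, and 9.84 to 9.85 in control and 9.29 to 9.42 in Cre+ thymus. The thymus arrays of the genotypes did not overlap in this mean, whereas those of LSEC did.

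**Figure D4:**
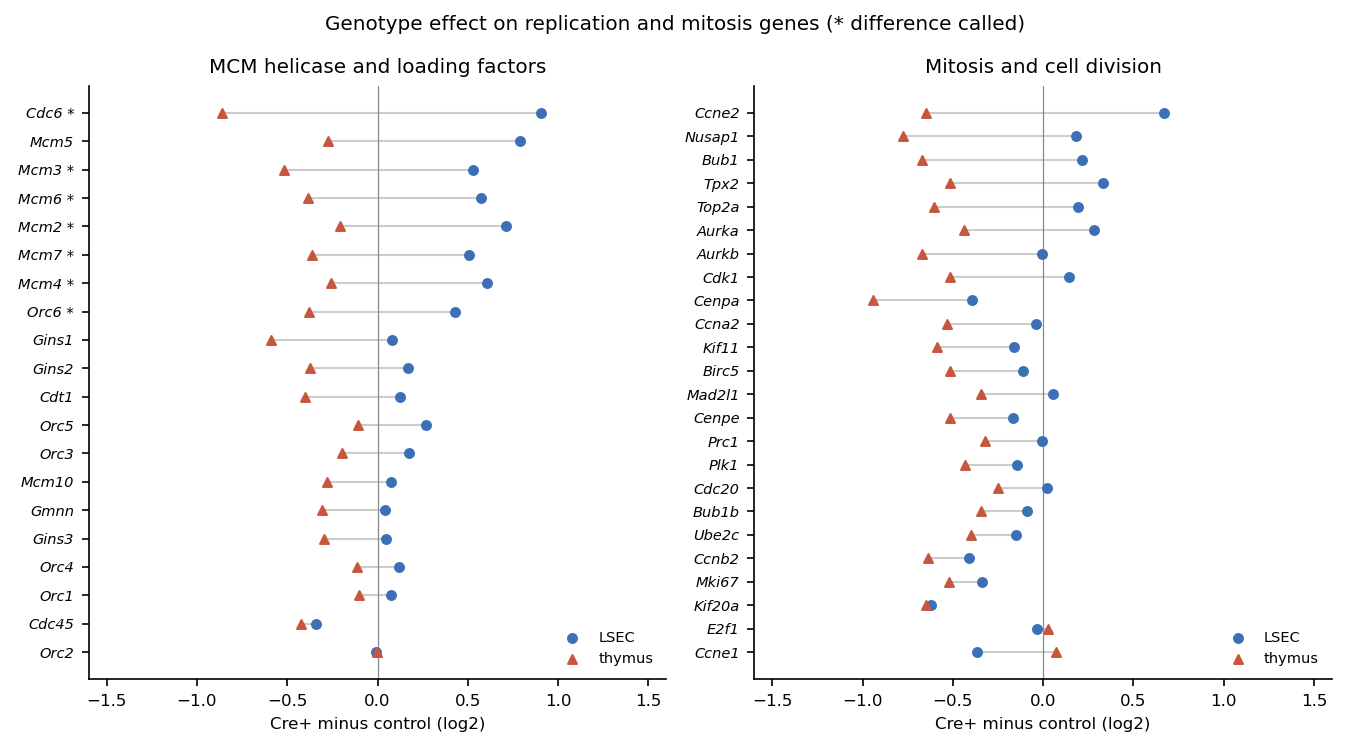
Effect of genotype (Cre+ minus control, log2) in LSEC (blue circles) and thymus (red triangles), with genes ordered by the difference. Shown are 20 genes of the MCM helicase and its loading and 24 genes of mitosis and cell division, and asterisks mark called differences. Most MCM genes lie above 0 in LSEC and below 0 in thymus, and the mitosis genes, none of which was called, have a median of -0.04 in LSEC and -0.52 in thymus.

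FoxO target genes known from other work were examined as lists. Of 26 targets of growth arrest and survival, 4 had a lower effect in LSEC and none a higher one (1.44% of all genes lower). Gadd45a, whose product slows the cell cycle after DNA damage, went from 9.96, 9.89 and 9.79 to 7.74, 7.30 and 7.61 in LSEC and from 7.22 and 7.43 to 7.10 and 6.56 in thymus, a difference of -1.84 ± 0.23 (SE; limma adjusted p = 0.0037). Depp1, an autophagy regulator gene that FoxO factors induce, went from 11.07, 10.92 and 11.26 to 9.37, 9.66 and 9.26 in LSEC and from 9.59 and 9.50 to 9.71 and 10.58 in thymus. Its difference was -2.26 ± 0.33 (SE; limma adjusted p = 0.00683), and -3.65 on a second probe set that was dim in thymus. Btg2, an antiproliferative gene, fell by 1.19 in LSEC and had -0.13 in thymus, and Klf6, a zinc finger factor gene, -0.60 and -0.07.

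The median of this list was -0.34 in LSEC and 0.00 in thymus. Cdkn1b, the gene of the cyclin-dependent kinase inhibitor p27, gave a contrast to those genes, with almost the same estimate of -0.58 in LSEC and -0.59 in thymus and a difference of 0.00 ± 0.20 (SE). Its fall passed in LSEC (limma adjusted p = 0.0177) and not in thymus (limma adjusted p = 0.124), while the 95% interval of the difference was -0.42 to 0.43. The list's count of 4 was 2 without thymus control replicate 2 or thymus Cre+ replicate 2.

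Among 22 FoxO targets of metabolism and stress resistance, Sod2, the mitochondrial superoxide dismutase gene, had a higher effect in LSEC and Pdk4, a pyruvate dehydrogenase kinase gene, a lower one. Of all genes, 0.898% were called higher and 1.44% lower. Sod2 rose from 10.14, 10.06 and 10.07 to 10.85, 10.92 and 10.52 in LSEC and stood at 9.19, 9.25, 9.27 and 9.08 in thymus, where the genotypes overlapped. Of 13 lymphocyte FoxO targets 2 differed (2.34% of all genes), both with their larger estimate in thymus. Id3, an inhibitor of E proteins, fell from 10.22 and 10.18 to 9.38 and 9.16 in thymus with an LSEC estimate of 0.09, a difference of 1.03 ± 0.18 (SE; limma adjusted p = 0.0162). Itgae, the gene of the integrin CD103, went from 8.41 and 7.95 to 8.90 and 9.24 in thymus without passing there (limma adjusted p = 0.0688), a difference of -1.04 ± 0.24 (SE; limma adjusted p = 0.0451). Il7r, the interleukin 7 receptor gene, had estimates of -0.15 and 0.08.

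None of 22 insulin and PI3K signalling genes differed by limma (2.34% of all genes), with medians of -0.08 in both tissues. At an unadjusted p under 0.05 in limma 1 was lower (8.63% of all genes). Insr, the insulin receptor gene, fell by 0.51 in LSEC, and its thymus estimate of -0.37 did not pass. None of 8 Gimap genes, which encode GTPases of lymphocytes and endothelium, differed either, and none had an unadjusted p under 0.05 in limma (16.6% of all genes). With 2.34% of all genes called, lists of 22 and 8 are too short for the lack of a call to show equal effects. Their medians were -0.31 in LSEC and -0.39 in thymus. Gimap6 fell from 9.54, 9.66 and 9.40 to 7.82, 8.19 and 8.15 in LSEC and from 9.81 and 9.76 to 8.44 and 7.96 in thymus. The tissues' falls of 1.48 and 1.59 differed by 0.11 ± 0.21 (SE; 95% interval -0.36 to 0.58; limma adjusted p = 0.831). A second Gimap6 probe set, dim in LSEC, gave -0.10 in LSEC and -1.04 in thymus. Its difference of 0.94 did not pass (limma adjusted p = 0.0838).

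Gimap6 was 1 of 12 genes called in the same direction in both tissues (0.0921% of all genes), 8 of them lower and 4 higher. Foxo1 and Foxo4 were among those that fell, with Otud1 (-0.70 in LSEC and -1.07 in thymus), a deubiquitinase gene, Usp24 (-0.75 and -1.24), another, Tmem71 (-1.01 and -1.27) and Gpr4 (-1.30 and -1.87), a proton-sensing receptor gene that was dim in thymus. A called difference was found for 1 of the 12. This gene, Gm34303, annotated as a pseudogene next to Foxo1 in GRCm38.p6, rose from 7.08, 7.10 and 7.0 to 9.03, 8.89 and 8.79 in LSEC and from 6.77 and 6.70 to 9.99 and 10.04 in thymus. It rose in both tissues and more in thymus, by 1.43 ± 0.12 (SE; 95% interval of the difference -1.70 to -1.16; limma adjusted p = 0.000317). In lung endothelial cells its estimate was 1.08.

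Endothelial FoxO targets and vascular genes were mostly dim in thymus: 15 of 26 had signal in LSEC alone and 9 in both tissues. In this list 10 had a lower effect in LSEC and 1, the endothelin receptor gene Ednrb, a higher one, against 1.44% and 0.898% of all genes. Medians were -0.29 in LSEC and 0.08 in thymus. Vcam1, the gene of a leukocyte adhesion receptor, was the only one of the 11 with signal in both. It fell from 10.56, 10.43 and 10.61 to 9.91, 9.25 and 9.26 in LSEC and stood higher in Cre+ thymus, at 10.89 and 10.85 against 10.11 and 10.21. Arrays of the genotypes did not overlap in either tissue, and the difference was -1.77 ± 0.24 (SE; limma adjusted p = 0.00561), with -1.70 and -1.11 on its other probe sets. Flt1, a VEGF receptor gene, stood 0.24 higher in Cre+ LSEC and rose by 1.00 in thymus, where it was dim in both groups (limma adjusted p = 0.00861). The count of lower effects was 5 without thymus control replicate 2 or thymus Cre+ replicate 2.

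Angpt2 and Lyve1 stood for the genes with signal in LSEC alone. Angpt2, the angiopoietin 2 gene, fell from 11.42, 12.04 and 11.47 to 7.95, 7.86 and 7.60 in LSEC and stood at 6.56, 6.64, 6.58 and 6.38 in thymus, below the limit on every array. Its difference was -3.72 ± 0.32 (SE; limma adjusted p = 0.000317). Lyve1, the hyaluronan receptor gene of sinusoidal and lymphatic endothelium, fell from 11.69, 12.08 and 11.73 to 8.56, 7.99 and 8.58 in LSEC. In thymus it stood at 4.46 and 4.53 in control and 5.31 and 5.79 in Cre+ arrays, dim throughout, and the difference of -4.51 ± 0.32 (SE; limma adjusted p = 0.000101) includes a thymus estimate of 1.06 between dim levels, so its size is uncertain. A second Lyve1 probe set gave -3.98. A second Angpt2 probe set, also dim in thymus, gave -1.96 and did not pass (limma adjusted p = 0.0674).

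The other large negative differences of this class were those of Abcc9 (-3.36) and Kcnj8 (-2.70), which encode subunits of an ATP-sensitive potassium channel, Pdk4 (-3.33), the guidance cue gene Sema3d (-3.08), the transporter gene Slc10a6 (-2.92) and the Wnt antagonist gene Frzb (-2.79). Of the other Abcc9 probe sets, 1 had signal in thymus alone, with a difference of -1.61. All fell in LSEC, and their thymus estimates lay between -0.08 and 0.41 without passing. Positive ones were led by Il6, the interleukin 6 gene, which rose from 4.22, 4.25 and 4.49 to 8.45, 8.76 and 7.53 in LSEC and was between 1.92 and 3.71 on the thymus arrays. The histidine decarboxylase gene Hdc (3.12), Vwf (2.74), the von Willebrand factor gene, Foxc2 (2.35), a forkhead gene of lymphatic development, Col13a1 (1.86), a collagen gene, Tedc2 (1.81), Il1a (1.73), a cytokine gene, and Gprc5b (1.65), an orphan receptor gene, followed. All 8 rose in LSEC. A second Hdc probe set had a thymus estimate of 1.11 and a difference of 1.70 that did not pass (limma adjusted p = 0.164). Of the 73 called differences in this class 64 had a called LSEC effect and 3 a called thymus effect.

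Most LSEC markers fell in LSEC, and 11 of the 19 tested were dim in thymus. Of the 19, 14 fell in LSEC and 1, Il1a, rose, against 3.25% and 2.81% of all genes. A called difference was found for 7 lower and the same 1 higher, against 1.44% and 0.898% of all genes. The list's median was -1.18 in LSEC and 0.11 in thymus. Only 8 of the 19 had signal in both tissues, and 3 of those were called: Dnase1l3, Fcgr2b and Clec4g (-1.47), a lectin gene. Without thymus control replicate 2 or thymus Cre+ replicate 2 the count of lower effects was 3. Of 20 pan-endothelial markers 2 were lower, the tight junction gene Cldn5 (-1.43) and Robo4 (-1.56), and Vwf higher; without thymus control replicate 2 none was lower. There was 1 lower without thymus control replicate 1, thymus Cre+ replicate 2, LSEC control replicate 1, LSEC control replicate 2 or LSEC Cre+ replicate 2, and none higher without the first 2 of these.

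Extracellular matrix genes differed in one direction where they differed. Of 29 tested, 8 had a lower effect in LSEC (1.44% of all genes) and none a higher one, and 25 of the 29 differences were below 0. Medians were -0.13 in LSEC and 0.32 in thymus. Col3a1, a fibrillar collagen gene, rose from 9.96 and 9.92 to 10.62 and 10.77 in thymus and stood at 7.38, 7.18 and 7.48 in control LSEC and 7.12, 7.19 and 7.07 in Cre+ LSEC, with overlap. Its difference was -0.97 ± 0.15 (SE; limma adjusted p = 0.0095). Col1a2 went from 8.14, 8.12 and 8.85 to 7.66, 7.88 and 7.52 in LSEC and from 8.48 and 8.43 to 8.98 and 9.21 in thymus, a difference of -1.33 ± 0.27 (SE; limma adjusted p = 0.0328). Nid2 (-2.12), a basement membrane gene, fell by 1.82 in LSEC and was dim in thymus, as was Ccn2 (-1.43), the connective tissue growth factor gene. Lama4, Sparc, Mmp9 and Adamts4 completed the 8.

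Beside these, stellate, fibroblast and mural cell markers had medians of -0.21 in LSEC and 0.35 in thymus. A lower effect in LSEC was called for 2 of the 14 markers (1.44% of all genes), the same collagen genes. Their mean level was 7.88 to 8.01 on control and 8.27 to 8.37 on Cre+ thymus arrays, and 7.10 to 7.50 on control and 6.89 to 7.34 on Cre+ LSEC arrays. Thymic epithelial markers stood at 9.74 to 9.79 on control and 10.02 to 10.14 on Cre+ thymus arrays, and none of 10 had a called difference by limma. At an unadjusted p under 0.05 in limma the LSEC effect was lower than the thymus effect for 3 (8.63% of all genes). In thymus itself 2 were higher at that p (6.64% of all genes) and none lower. Macrophage markers stood at 8.20 to 8.25 and 8.51 to 8.62 on the thymus arrays. The part of such shifts in the matrix result was not tested. Without thymus control replicate 2, thymus Cre+ replicate 2 or thymus control replicate 1 the count of 8 was 2, 3 and 4.

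Of 22 immediate early and heat shock genes 10 fell in LSEC (3.25% of all genes). None passed in thymus by limma (1 lower at an unadjusted p under 0.05, against 5.72% of all genes). A lower effect in LSEC was called for 4 (1.44% of all genes), Hspb1, Egr1, Atf3 and Btg2. Medians were -0.53 in LSEC and -0.04 in thymus. Egr1, an immediate early factor gene, went from 11.06, 10.78 and 11.39 to 9.18, 9.86 and 8.89 in LSEC and stood at 10.69, 10.63, 10.69 and 10.70 in thymus, a difference of -1.80 ± 0.36 (SE; limma adjusted p = 0.0283). Thymus arrays of Egr1 were within 0.1 log2 units of each other. The count of 4 fell to 0 without thymus control replicate 2 and to 1 without thymus control replicate 1 or thymus Cre+ replicate 2. Of 21 genes of the unfolded protein response 2 were lower, Dnajb9 (-0.72) and Herpud1 (-0.62).

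Interferon response genes are of interest because MxCre is driven by an interferon-inducible promoter. Of 21 tested, 3 had a lower effect in LSEC (1.44% of all genes), Gbp3, Oasl2 (-0.93) and Oasl1 (-0.68). With no filter, with the 10 arrays alone or with the replicate block, 0 were called. Of the 21 differences 20 were below 0, where the median difference over all genes was -0.015. These genes had medians of -0.30 in LSEC and 0.23 in thymus. Their mean level was 7.98 to 8.06 on control and 7.60 to 7.75 on Cre+ LSEC arrays. In thymus it was 8.23 to 8.35 on control arrays and 8.25 and 8.75 on the Cre+ arrays, so 1 of them lay within the control range and the other above it. The count was 8 without thymus Cre+ replicate 1 and 0 without thymus Cre+ replicate 2 or thymus control replicate 2. Without thymus control replicate 1, LSEC control replicate 3 or LSEC Cre+ replicate 3 it was 1.

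Several other lists held 1 to 4 called differences, where 1.44% of all genes had a lower and 0.898% a higher effect in LSEC. Socs3 (-0.77) and Errfi1 (-1.71), feedback inhibitors of cytokine and growth factor receptors, were lower in LSEC with Spry2 (-1.59), which was dim in thymus, among 16 such genes. Of 24 TGF-beta and BMP genes, the ligand genes Bmp4 (-2.06) and Bmp2 (-1.71) had lower and the modulator gene Bmper (1.41) and Id3 higher effects in LSEC. Without thymus Cre+ replicate 2 the feedback list held 1 call, and the TGF-beta and BMP list 1 lower and 0 higher. Without thymus control replicate 2 that list had the same split and the feedback list 2 calls, and without thymus control replicate 1 the TGF-beta and BMP list had 2 lower and 1 higher. Rora, a nuclear receptor gene among 17 clock genes, rose in thymus from 7.16 and 6.74 to 8.11 and 8.35 and stood at 8.04, 7.89 and 7.96 in control LSEC and 7.65, 7.77 and 7.88 in Cre+ LSEC. Its difference was -1.48 ± 0.19 (SE; limma adjusted p = 0.00446). Of its 8 other probe sets 6 gave a negative difference. Mfng (-0.84), a glycosyltransferase gene of the Notch pathway, was lower among 20 Notch genes. Wnt2 and Frzb were lower among 22 Wnt genes, and Cd14 (-1.75), a lipopolysaccharide co-receptor gene, among 14 macrophage markers.

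Lists with no called difference in limma were those of Bcl2 family and death receptor genes (0 of 20, with 4 at an unadjusted p under 0.05), autophagy (0 of 22, 5), sterol and fatty acid synthesis (0 of 19, 4), the respiratory chain (0 of 23, 4), cytosolic ribosomal proteins (0 of 15, 2) and proteasome subunits (0 of 22, 1). Their median differences lay between -0.14, for autophagy, and 0.20, for sterol synthesis. Of all genes tested, 16.6% had an unadjusted p under 0.05 for the difference in limma, and 2.34% had a called difference. Among p53 and DNA damage genes Gadd45a alone was called of 18, and among 21 genes of glycolysis and fuel switching Pdk4 alone. At an unadjusted p under 0.05 in limma the LSEC effect was lower for 8 of the 18 (8.63% of all genes) and higher for none. Of these 18 differences 15 were below 0, with a median of -0.36. Of the 21, 4 were lower and 1 higher at that p (8.63% and 7.97% of all genes). Nqo1 (1.58) and Sod2 were higher and Gpx3 lower among 22 antioxidant genes. None of these was called higher without thymus control replicate 1, thymus control replicate 2, thymus Cre+ replicate 2 or LSEC control replicate 2, and without thymus control replicate 2 none was called lower either. There was 1 higher without LSEC control replicate 1, LSEC control replicate 3, LSEC Cre+ replicate 2 or thymus Cre+ replicate 1.

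**Figure D5:**
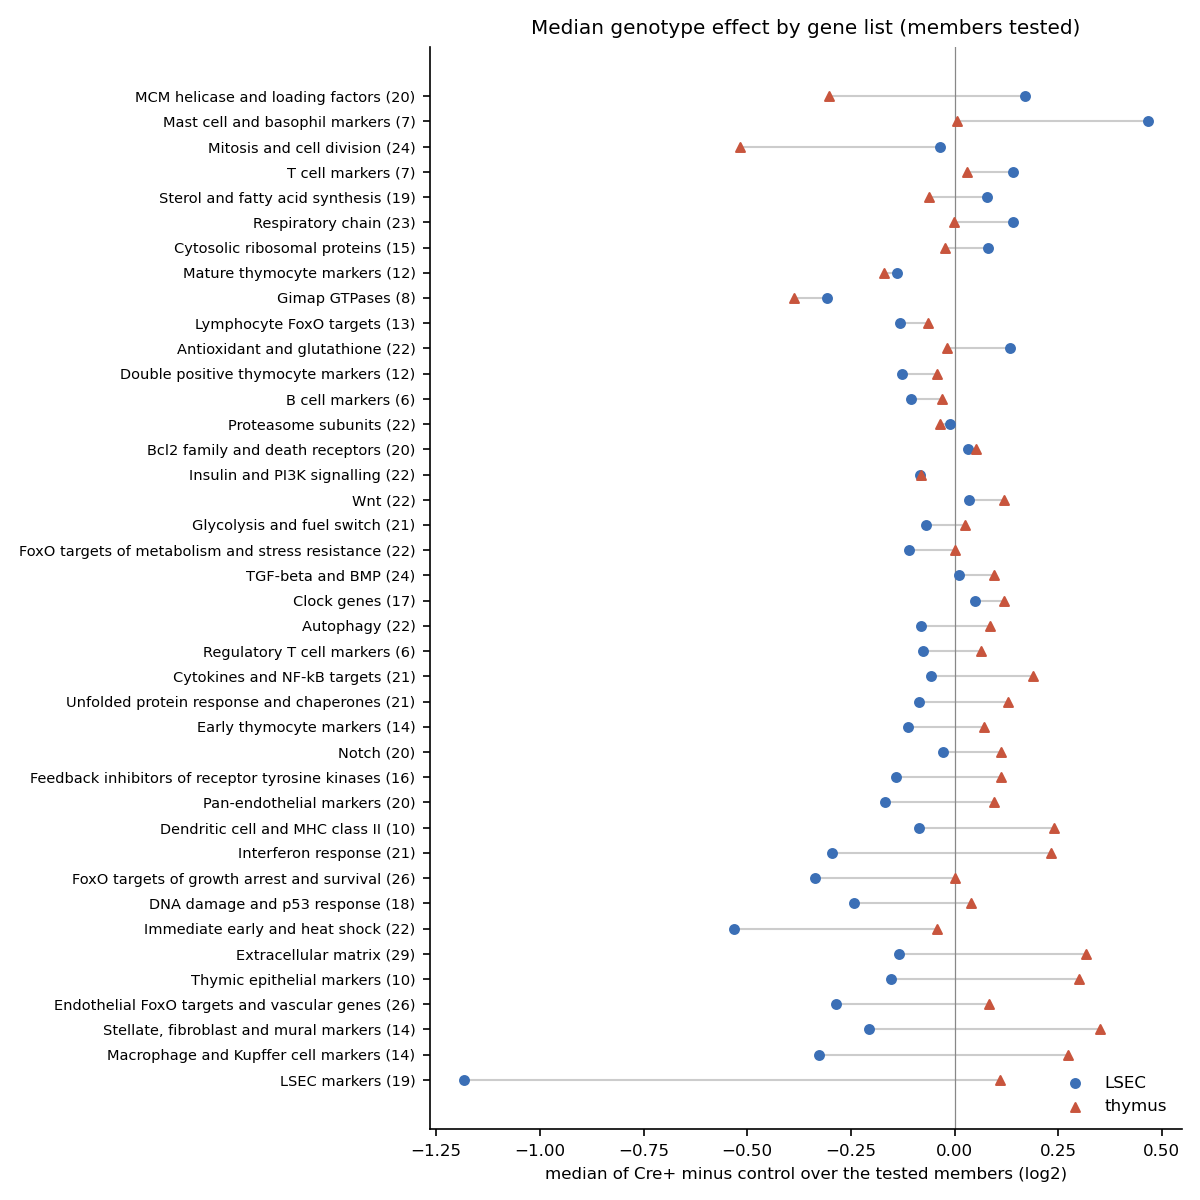
Median genotype effect (Cre+ minus control, log2) over the tested members of each gene list with 6 or more of them, in LSEC (blue circles) and thymus (red triangles), ordered by the median difference; the number tested stands in brackets. The median of MCM genes lies above 0 in LSEC and below 0 in thymus, those of matrix and interferon genes the other way round, and that of LSEC markers at -1.18 in LSEC and 0.11 in thymus, where 11 of the 19 were dim.

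In thymus, 15 genes without signal in LSEC had a called difference. H2-Eb1, which encodes a beta chain of MHC class II, stood at 11.14 and 10.85 in control and 8.19 and 8.18 in Cre+ thymus, and was dim on all LSEC arrays, at 5.82, 6.20 and 6.25 in control and 5.51, 5.61 and 5.32 in Cre+. It fell by 2.81 in thymus (limma adjusted p = 0.000308), and its difference was 2.20 ± 0.30 (SE; limma adjusted p = 0.00561). The other class II genes had estimates above 0 in thymus: H2-Ab1, H2-Aa and Cd74 had thymus estimates of 0.44, 0.51 and 0.32, and differences of -1.19, -1.18 and -0.95 that did not pass (limma adjusted p = 0.0505, 0.13 and 0.197). H2-Eb1 has 1 probe set here. The list of dendritic cell and class II genes had a thymus median of 0.24.

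Cd207, the gene of the dendritic cell lectin langerin, went from 7.94 and 7.01 to 8.97 and 10.01 in thymus, a difference of -3.05 ± 0.63 (SE; limma adjusted p = 0.0337), without passing in thymus by itself. Rbm24, an RNA-binding protein gene, rose in thymus from 8.02 and 7.32 to 9.74 and 9.44, a difference of -1.70 ± 0.33 (SE; limma adjusted p = 0.024). Postn (-1.39), a matrix gene, the complement genes C1ra (-1.38) and Serping1 (-0.94) and the class I transactivator gene Nlrc5 (-0.91) made up the 6 with lower effects in LSEC. Besides H2-Eb1, those with higher effects included the kinase genes Melk (1.84), Chek1 (1.30) and Tec (0.89), the repressor gene E2f7 (1.00), Bambi-ps1 (1.26), Heg1 (0.71) and Magea4 (2.47). Magea4 stood at 7.07, 7.21, 6.95 and 6.57 in thymus and rose in LSEC from 3.84, 4.84 and 4.20 to 6.84, 6.65 and 5.67, a mean still under the limit. Its difference thus comes from the tissue in which it was called dim.

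Genes with signal in both tissues that changed in thymus were fewer. A difference from LSEC was called for 10 of the 25 that fell and 13 of the 18 that rose, against 88 of 302 and 53 of 273 in LSEC. These shares were not compared by a test. Aqp11, an aquaporin gene among 12 markers of double positive thymocytes, fell from 9.16 and 9.27 to 8.20 and 8.07, with an LSEC estimate of 0.00 and a difference of 1.08 ± 0.20 (SE; limma adjusted p = 0.0209); 1 of its other probe sets, with signal in both tissues, gave -0.18. Satb1, a chromatin organiser gene of thymocytes, had 0.03 in LSEC and fell by 0.66 in thymus, and Cd7, a T cell surface marker gene, had 0.11 and rose by 1.35. Satb1 and Cd7 were named after their values were seen. T cell markers and double positive markers as a whole stood at 10.99 to 11.06 and 11.25 to 11.38 on the Cre+ thymus arrays, against 11.08 to 11.10 and 11.49 to 11.51 in control.

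The forkhead core motif GTAAACA was searched on both strands in windows of 300 bases around the start sites of RefSeq genes, because FoxO proteins bind such a core. Of the 212 genes with signal in both tissues and a called difference, 169 had a window, and 9 of these held the motif (5.33%), against 273 of 8688 genes with signal in both tissues (3.14%) and 3.65% of all windows. A match describes the letters of a window and is no binding site. Windows to show were picked from holders with the motif in the upstream 250 bases. Windows on a chromosome left out of the choice could not be picked, so holders with larger differences may be missing. Among those that could be picked, the largest differences were those of Gbp3, Gfpt2, Limch1 and Klf9. Their upstream 250 bases are shown 5′ to 3′ on the gene's strand, with the motif, or TGTTTAC where it lies on the opposite strand, in capitals. All are from GRCm38.p6, plus strand, at chr3:142559794-142560043, chr11:49793905-49794154, chr5:66857219-66857468 and chr19:23140976-23141225 in that order. They lie upstream of the annotated start sites.
Gbp3: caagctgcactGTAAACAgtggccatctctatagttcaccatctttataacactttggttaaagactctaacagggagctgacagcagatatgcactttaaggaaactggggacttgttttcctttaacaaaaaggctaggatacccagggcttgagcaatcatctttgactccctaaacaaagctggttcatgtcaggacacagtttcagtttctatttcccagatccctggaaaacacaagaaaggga
Gfpt2: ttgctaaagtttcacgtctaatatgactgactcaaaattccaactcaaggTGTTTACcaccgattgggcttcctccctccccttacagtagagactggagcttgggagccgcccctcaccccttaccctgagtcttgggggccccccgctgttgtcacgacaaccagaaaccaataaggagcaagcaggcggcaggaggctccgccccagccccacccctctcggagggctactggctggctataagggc
Limch1: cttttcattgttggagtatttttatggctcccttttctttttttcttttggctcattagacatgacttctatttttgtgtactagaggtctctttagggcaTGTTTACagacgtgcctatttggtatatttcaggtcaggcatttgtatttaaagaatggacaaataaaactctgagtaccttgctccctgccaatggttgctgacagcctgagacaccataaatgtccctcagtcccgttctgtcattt
Klf9: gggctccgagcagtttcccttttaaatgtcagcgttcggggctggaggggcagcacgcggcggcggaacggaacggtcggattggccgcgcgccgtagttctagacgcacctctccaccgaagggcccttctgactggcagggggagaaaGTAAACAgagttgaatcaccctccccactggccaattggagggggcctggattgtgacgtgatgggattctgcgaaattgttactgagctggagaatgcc

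In these windows the motif begins 239, 200, 149 and 100 bases before the start site. Gbp3, a guanylate-binding protein gene of the interferon response, fell from 7.85, 7.47 and 7.33 to 6.28, 6.18 and 5.71 in LSEC and stood at 7.64, 7.37, 7.36 and 7.87 in thymus, with overlap. Its difference was -1.6 ± 0.29 (SE; limma adjusted p = 0.0179). Gfpt2, which encodes an entry enzyme of the hexosamine pathway, fell from 10.51 ± 0.19 to 9.05 ± 0.14 in LSEC (SD, n = 3 each) and stood at 7.75 ± 0.35 and 7.88 ± 0.38 in thymus (SD, n = 2 each). The difference was -1.58 ± 0.28 (SE; limma adjusted p = 0.0179).

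Limch1 fell by 0.90 in LSEC and stood 0.49 higher in Cre+ thymus, a difference of -1.39 ± 0.28 (SE; limma adjusted p = 0.0313). Klf9, a zinc finger factor gene, had -0.46 in LSEC and 0.60 in thymus, neither of which passed (limma adjusted p = 0.0952 and 0.179), while the difference of -1.05 ± 0.23 (SE) did (limma adjusted p = 0.0386). The arrays of Limch1 and Klf9 lay apart by genotype in both tissues, lower with Cre in LSEC and higher with Cre in thymus. All 4 genes have the lower effect in LSEC, but 3 of the 9 holders had the higher one.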

How the data were processed

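RNA of LSEC and thymus was measured on Affymetrix mouse genome arrays. The deposited values were read as log2 intensities from their range, since the authors' summarization, background correction and log base were not given in the sources used; if the base differs, every fold changes. The 14 arrays were quantile normalized, because their deposited medians, 6.75 to 7.04, spread by more than 0.2. Of 45101 probe sets 34945 had 1 gene symbol in the platform annotation, 932 several and 9160 none; 34741 matched a RefSeq gene. The brightest probe set stood for each of 18193 genes, and 13034 were tested, those with a mean of at least 6.87 (the 40th percentile) in some tissue.

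Group means over all 14 arrays, lung endothelial cells included so that all groups share 1 estimate of the spread, were fitted with limma 3.58.1 in R 4.3.3 (lmFit, eBayes; 8 residual degrees of freedom). The difference was a contrast of the 4 LSEC and thymus groups, called at a Benjamini-Hochberg adjusted p under 0.05 over all genes tested; probe set values of the floxed genes were adjusted over 22737 named probe sets. The code was tested on simulated data. Genes were named by rule: the floxed genes, the 12 largest called differences in each direction with signal in both tissues, the 8 largest in each direction with signal in one, the largest of those called in both tissues, and up to 3 per list. Other genes are examples from the lists. The comparison, the 45 gene lists and the rules were chosen with earlier results of these data known. Alternatives changed the scaling, filter, probe set, weights, arrays and replicate block.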

Additional observations from a re-analysis of the deposited data

Results flagged for a closer look

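The genotype effect differed between LSEC and thymus, by limma's test of the difference itself, in the results and in all 24 alternatives for 14 of the 91 named genes with a called difference. With signal in both tissues these were Epha2 (-4.44), Fmo1 (-3.75), Mmd (-2.21), Gm34303 (-1.43), Foxo3 (-1.21), Cd9 (1.40) and Tubb2a (1.94), each given as LSEC effect minus thymus effect on the log2 scale. With signal in LSEC alone they were Lyve1 (-4.51), Angpt2 (-3.72), Pdk4 (-3.33), Slc10a6 (-2.92), Nid2 (-2.12) and Bmp4 (-2.06). H2-Eb1 (2.20) had signal in thymus alone. In the alternative with every probe set, each gene was still read on its brightest probe set.

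Outside the named genes, 7 of 4285 probe sets with no or several gene symbols had a called difference (0.163%; limma adjusted p under 0.05 over these probe sets). The LSEC effect was higher in 1 and lower in 6 of them, and 4 had signal in both tissues.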

How the results depend on the processing

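All 91 named genes with a called difference kept its sign in each alternative that tested the gene; of 2155 such pairs of gene and alternative, out of 24 alternatives, 530 lost the call. The named genes were chosen for passing the test on these same arrays, so a kept sign is no separate support. The counts moved more. Differences numbered 305 in all, 212 with signal in both tissues, 88 with signal in one and 1 called in opposite directions. They were 122, 79 and 38 with no filter, where more genes were tested, and 159 with signal in one and 9 opposite with the filter at the 60th percentile. Every probe set in place of one per gene gave 3 opposite, a trended and robust prior 9, values as deposited 0 and the filter without lung, added after seeing the data, 2. Array weights gave 193 and 130 with signal in both, 1 weight per tissue 186 and 124, and the 10 arrays alone 128, 84, 44 with signal in one and 0 opposite. Over 2-fold there were 168 and 92. Leaving out 1 array gave 62 to 666, 37 to 517, 24 to 145 and 0 to 21; the lone thymus array of a group is then assumed to vary like the other groups. The cause of these shifts was not tested.

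With the replicate number as a block, 23 differences were called, 11 with signal in both tissues, 12 with signal in one and 0 opposite; 22 were among the 305, and 1704 genes had an unadjusted p under 0.05 in limma. With this block no difference was called in the growth arrest, MCM, interferon, immediate early, antioxidant or feedback lists. The matrix list held 1, the LSEC marker list 2 and the list of endothelial FoxO targets 4. Same-numbered deviations correlated at -0.309, -0.0914 and -0.255 in LSEC and 0.0521 in thymus. Deviations of so few arrays from their group mean are tied to each other. These values therefore do not show whether the numbers pair the samples. Signs turned for differences that were not called: Gimap6 with median centring (-0.0017), as deposited (-0.0039) and without thymus Cre+ replicate 2 (-0.13, against up to 0.35 without another array), Foxo1 with the mean of all probe sets (-0.047) and Tmem71 without thymus control replicate 1 (-0.0052, against up to 0.53 without another). Signal over background limits genes with a group mean under 6.87, whose sizes are uncertain.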

Other observations

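Mast cell and basophil markers had a mean level of 6.92 to 7.24 on control and 7.75 to 8.48 on Cre+ LSEC arrays, against 6.08 to 6.39 and 6.15 to 6.37 on thymus arrays. Of 7 tested, Hdc had a higher called effect in LSEC and Kit, the stem cell factor receptor gene, a lower one, against 0.898% and 1.44% of all genes. On a second Hdc probe set the difference did not pass (1.70, limma adjusted p = 0.164). Natural killer cell markers Klrd1 (-0.84) and Nkg7 (-0.74) had lower effects in LSEC, as 2 of 5 tested (1.44% of all genes). Among 14 early thymocyte markers Kit alone differed (2.34% of all genes). Kit was dim in thymus and fell by 1.17 in LSEC. On a second Kit probe set the difference of -0.78 did not pass (limma adjusted p = 0.129). By limma none of the hepatocyte, neutrophil, B cell, T cell, erythroid, platelet, mature thymocyte and regulatory T cell markers had a called difference, and at an unadjusted p under 0.05 there were 1, 0, 1, 1, 1, 1, 4 and 2 of them. The share of all genes tested at that p was 16.6%.

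Of 155 other probe sets with signal in both tissues that belong to 94 of the 212 genes, 141 had a difference of the same sign as the one reported, and 112 of these also an unadjusted p under 0.05 in limma.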
